A study of Mus musculus with 2 samples.

Results

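The cells described here are CD8 T cells of the mouse mammary fat pad with RNA detected for the integrin chain CD49a (gene Itga1) and for the chemokine receptor CXCR6. No RNA was detected in them for the integrin chain CD103 (gene Itgae). They numbered 200 of the 5488 T cells that passed the filters, 67 of 2991 parous and 133 of 2497 virgin cells. They were picked on UMIs (unique molecular identifiers, tags that let each captured RNA molecule be counted once). A cell needed at least 1 UMI of Itga1 and at least 1 of Cxcr6, and 0 UMIs of each of 6 genes. These were Itgae, Fcer1g and Tyrobp (signalling adaptors of natural killer (NK) and innate cells), Gzmk (granzyme K), Car2 (a carbonic anhydrase) and Cdh1 (E-cadherin). The levels of these 8 genes chose the cells and are not results.

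For both libraries, untreated C57BL/6 mice gave live CD45+ TCRB+ CD8a+ cells of their 4th mammary fat pad, isolated by sorting, and the 5-prime end of their RNA was sequenced cell by cell. The parous mice were labelled multiparous, and the others virgin. Each group was 1 library of cells pooled from at least 5 mice, and the mice within a pool were not told apart. With 1 library per group, parity, the pool of mice and the library cannot be told apart, and differences between them have neither a replicate check nor a test. No age of the mice is given in the sources used.

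Resident memory T cells stay in a tissue after an earlier response and do not return to the blood. CD49a, paired with the beta-1 integrin chain, binds collagen, and CD103 binds E-cadherin on epithelial cells. CXCR6 is the receptor for CXCL16, a chemokine that also exists as a membrane protein, and resident cells are known both with and without CD103. Among other genes known from resident T cells in mice are Zfp683, which encodes the transcription factor Hobit, P2rx7, which encodes a channel opened by extracellular ATP, and Ccr8, which encodes a chemokine receptor.

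The parous library was the shallower one, with 14676415 UMIs over 4927 barcodes, against 20166425 UMIs over 2526 barcodes in the virgin library. The filters left out 1908 parous and 15 virgin barcodes. Parous T cells held a median of 4116 UMIs and virgin ones 7005. Of the barcode sequences, 18 occurred in both libraries, 14 of them among T cells, and none belonged to a gated cell in both. Intervals are exact at the 95% level (Clopper-Pearson for a share, Poisson for a count) and hold counting error alone.

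The gate's share was 2.24% among parous T cells (interval 1.74 to 2.84%), against 5.33% among virgin T cells (interval 4.48 to 6.28%). A gate that asks for detected genes and for undetected genes reads the depth of a cell, so the share was also taken after thinning. With virgin UMIs thinned so that the median per cell matched, though not the spread, the virgin share was 4.18% (103 of 2466, interval 3.42 to 5.04%), still above the parous interval. With every cell thinned to 1500 UMIs and the gate applied afterwards, the gate took 32 of 2847 parous cells (1.12%, interval 0.770 to 1.58%), against 31 of 2480 in the virgin library (1.25%, interval 0.851 to 1.77%), and the intervals overlapped. This left out 144 parous and 17 virgin T cells as too shallow. The lower parous share was thus seen at deposited and at median-matched depth, and no difference was detectable at 1500 UMIs per cell.

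Cells with UMIs of both Ccr7 and Lef1, a naive-type combination that should lack Itga1, gave the background of the gate. It took 4 of 573 such parous cells (0.698%, median 5138 UMIs) and 8 of 1099 such virgin cells (0.728%, median 7827 UMIs). At 1500 UMIs these were 0 of 246 parous cells, whose exact interval reaches up to 1.49%, and 1 of 441 virgin cells (0.227%). At that depth the parous share over all T cells, 1.12%, lay within what its background count of 0 allows. Itga1 UMIs occurred in 20.2% of all parous and 12.5% of all virgin T cells, and in 3.66% and 2.37% of the Ccr7 Lef1 cells of the 2 libraries. Cxcr6 UMIs occurred in 39.9% of all parous and 41.0% of all virgin T cells and still in 14.3% and 25.4% of the Ccr7 Lef1 cells.

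**Figure D1:**
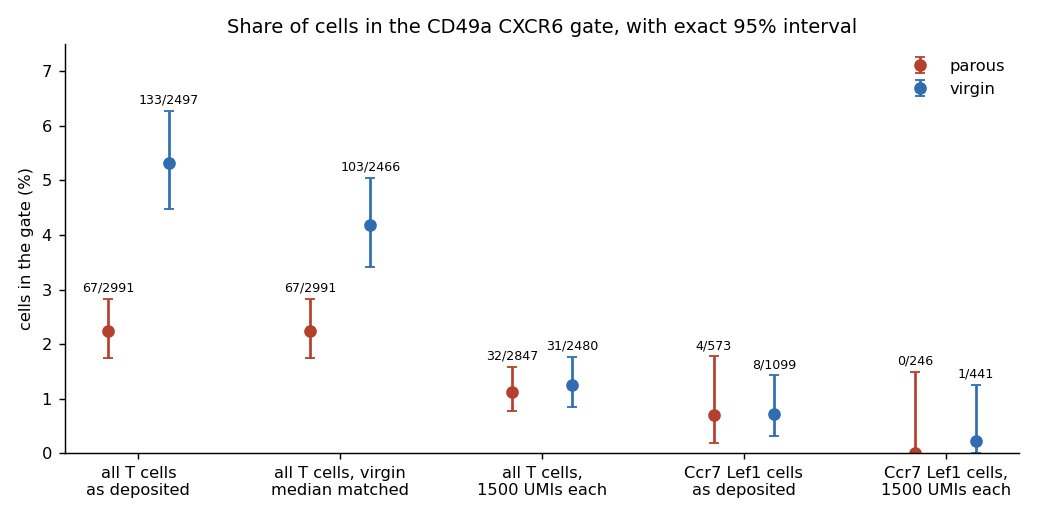
Share of cells in the gate in percent (vertical axis) for parous (red) and virgin (blue) libraries, for all T cells and for Ccr7 Lef1 cells, at deposited and at thinned depth; points are shares, bars exact 95% intervals, and the printed numbers gated cells over all cells. The parous share of 2.24% lies below the virgin share of 5.33%, and at 1500 UMIs per cell the shares are 1.12% and 1.25%.

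The genes required to be at 0 removed far more of the parous cells. Before they were applied, 369 parous and 250 virgin cells had both Itga1 and Cxcr6, and the 6 genes took out 302 parous (81.8%) and 117 virgin cells (46.8%). Itgae alone or with others was present in 178 parous and 21 virgin cells, Fcer1g in 153 and 16, Tyrobp in 114 and 30, Car2 in 116 and 10, and Cdh1 in 112 and 15. Gzmk, present in 118 parous and 72 virgin cells, was the only one of the 6 genes detected in 40 parous and 48 virgin cells, the most of any. Before the 6 genes were applied, cells with Itga1 and Cxcr6 were 12.3% of parous and 10.0% of virgin T cells at deposited depth, and 3.76% (107 cells) and 1.73% (43 cells) at 1500 UMIs. The parous share was thus the higher one at both depths before these genes were applied, and the lower one after them at deposited depth.

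Much of the gate rests on single molecules. Exactly 1 UMI each of Itga1 and Cxcr6 was found in 32 of the 67 parous and 17 of the 133 virgin gated cells. Just outside it, 36 parous and 32 virgin cells were left out by 1 UMI of 1 of the 6 genes. Undetected RNA can also be missed RNA. Of the cells with Itgae described below, 42.3% of 26 parous and 60% of 10 virgin ones kept an Itgae UMI at 1500 UMIs. The gate can therefore hold cells whose Itgae was missed. The highest counts in a gated cell were 3 UMIs of Itga1 and 8 of Cxcr6 in the parous library, and 11 and 23 in the virgin library. Gated cells held a median of 3713 UMIs (range 1322 to 16007) and 1500 genes in the parous library, and 7246 UMIs (range 2209 to 44517) and 2425 genes in the virgin library. Their mitochondrial share was a median of 0.972% in parous and 0.95% in virgin cells.

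The labelled resident identity was checked on the 3 markers that the gate did not use. At least 1 of P2rx7, Zfp683 and Ccr8 was found in 20 of 67 parous gated cells (29.9%, interval 19.3 to 42.3%) and in 94 of 133 virgin gated cells (70.7%, interval 62.2 to 78.2%). Among the other T cells 13.4% of parous and 12.5% of virgin cells had one. All 3 markers together were found in 1 parous and 16 virgin gated cells. The gated share was thus above that of the other T cells in both libraries, and most parous gated cells had no UMI of any of the 3 at their depth. The few cells that also carry Itgae, described below, had these markers about as often or more often, except P2rx7 in parous cells.

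Zfp683 (ENSMUSG00000049410, chromosome 4, 134053838 to 134058996) had 21 UMIs in 15 parous gated cells (22.4%) and 236 UMIs in 76 virgin gated cells (57.1%). Its level, in UMIs per 1e6 UMIs of the cells summed (CPM), was 71.2 in gated and 25.5 in other parous T cells, and 163 in gated and 22.4 in other virgin T cells. P2rx7 (ENSMUSG00000029468, chromosome 5, 122643911 to 122691432) had 10 UMIs in 7 parous gated cells (10.4%) and 112 UMIs in 50 virgin gated cells (37.6%), or 33.9 CPM in gated and 12.5 in other parous cells, and 77.4 CPM in gated and 17.5 in other virgin cells. Both genes were higher in the gate in each library, by log2 ratios of 1.51 (Zfp683) and 1.51 (P2rx7) in parous cells and of 2.86 and 2.15 in virgin cells. Ccr8 (ENSMUSG00000042262, chromosome 9, 120092114 to 120094906) had only 4 UMIs in 3 parous gated cells and 74 UMIs in 26 virgin gated cells, at 13.6 and 51.2 CPM, beside 8.81 and 8.23 CPM in the other T cells. Thinned to 1500 UMIs after gating, the shares of gated cells with a UMI were 15.2% in parous and 22.6% in virgin cells for Zfp683, 9.09% and 15% for P2rx7, and 1.52% and 4.51% for Ccr8. The virgin shares were the higher ones for all 3 genes at this depth too, with intervals that overlapped for each.

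Markers of conventional CD8 T cells were present, which the sort on TCRB and CD8a and the rule on Fcer1g and Tyrobp set in large part. Cd8a UMIs occurred in 85.1% of the parous and 93.2% of the virgin gated cells and Cd8b1 UMIs in 89.6% and 98.5%, while Cd4, Trdc (the constant region of the delta chain of the T cell receptor), Ncr1 (the NK receptor NKp46) and Zbtb16 (the transcription factor of NKT cells) had 0 UMIs in every gated cell of both libraries. Cd4, Trdc, Ncr1 and Zbtb16 were rare in the other T cells as well, found in at most 1.74% of them (Ncr1, parous). Foxp3 was found in 0 parous and 1 virgin gated cell, and the NK receptor Klrb1c in 2 parous and 4 virgin gated cells. Cd69, which holds T cells in tissue and also marks recent activation, was found in 58.2% of parous gated cells and 58.5% of the other parous T cells, and in 85.7% and 83.7% of the virgin ones. Cd69 therefore did not set the gated cells apart in either library.

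**Figure D2:**
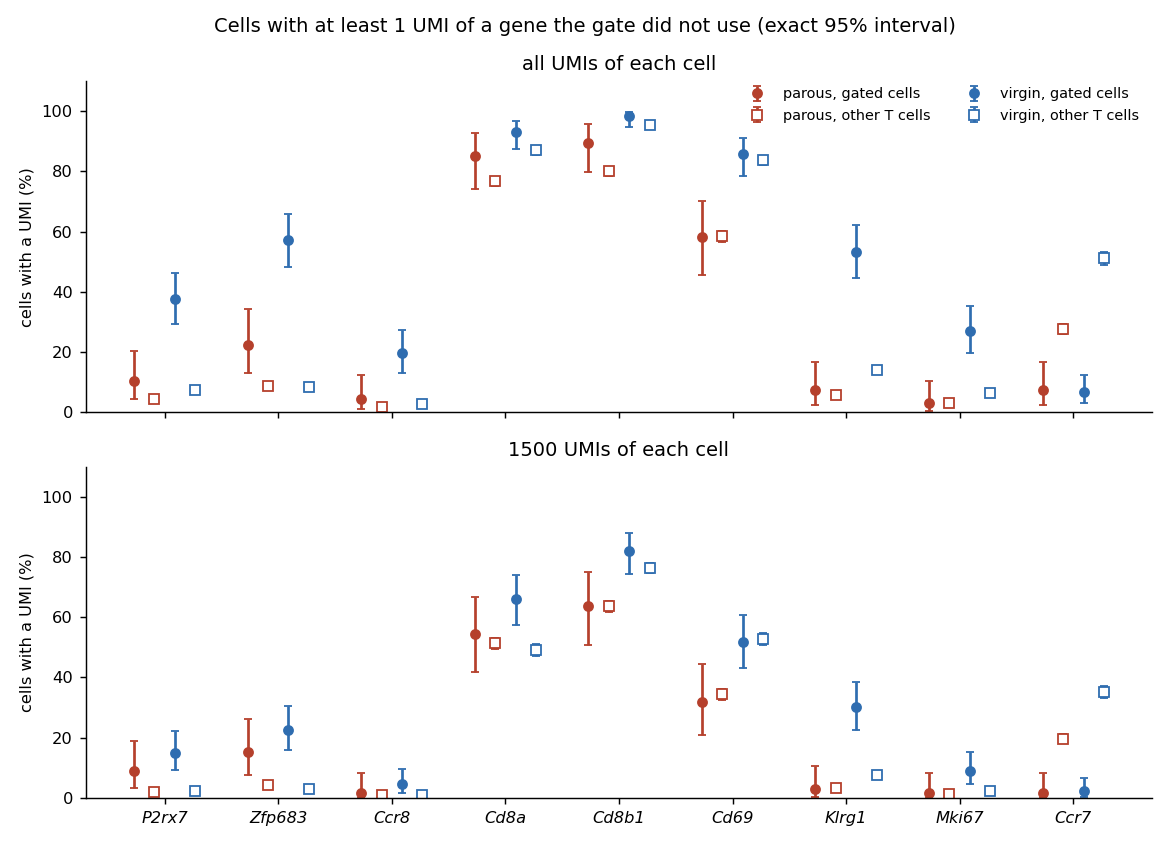
Share of cells with at least 1 UMI of each gene in percent, at all UMIs (top) and at 1500 UMIs per cell (bottom), for gated cells (filled circles) and other T cells (open squares) of the parous (red) and virgin (blue) libraries, with exact 95% intervals. The shares of P2rx7, Zfp683 and Ccr8 lie higher in gated than other cells, that of Ccr7 lower, and Klrg1 and Mki67 are most frequent among virgin gated cells. Ccr8 was found in only 3 parous gated cells. In the parous library the gated interval holds the share of the other cells for Ccr8 at both depths and for P2rx7 at all UMIs.

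Compared with the other T cells of the same library, the gated cells had less RNA of Ccr7 and of other genes high in naive T cells, and more of several adhesion genes and of a few cytokine genes. The gate itself sets this contrast, so the values are a description. A gene was counted as higher or lower where it differed at least 1.5-fold the same way in both libraries. Of 10186 genes measured in both, 536 were higher (5.26%) and 328 lower (3.22%) in the gated cells. The median log2 ratio over all genes was 0.12 for parous and 0.16 for virgin cells, and with median-of-ratios scaling, which shifts the ratios by 0.14 and 0.21, the counts turned round to 321 higher and 522 lower. The counts before and after rescaling are the background for the list counts before and after rescaling in this comparison.

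Naive-type genes lay furthest below. Of 25 measured recirculation genes, 8 were lower in both libraries and 2 higher, Itgb1 and S1pr5 (1 higher and 9 lower after rescaling). Of all genes, 3.22% were lower and 5.26% higher in both. Ccr7, the receptor that guides T cells into lymph nodes, had 57.6 CPM in gated and 332 in other parous cells (log2 ratio -2.48), and 43.6 CPM in gated and 542 in other virgin cells (-3.63). Dapl1, Lef1, Igfbp4, Actn1, Cmah and Satb1, all high in naive T cells, were lower in both as well. All 5 genes of the fixed naive list were lower in both libraries.

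The egress genes differed less, and in parous cells none of the next 3 genes passed 1.5-fold. Klf2, the transcription factor that drives the egress receptor S1pr1, had 705 CPM in gated and 824 in other parous cells (log2 ratio -0.22), and 749 CPM in gated and 1781 in other virgin cells (-1.25). S1pr1 had 77.9 and 118 CPM in the parous (-0.56) and 45.6 and 168 CPM in the virgin library (-1.87). Il7r, the receptor for the survival cytokine IL-7, had 200 and 226 CPM in the parous (-0.16) and 77.4 and 328 CPM in the virgin library (-2.08). The median log2 ratio of the recirculation list was -0.19 in parous cells, with 8 of 25 members lower, and -1.37 in virgin cells, with 17 of 25 lower, where 16.2% of all parous and 13.4% of all virgin genes were. The other T cells hold different shares of naive-type cells, since Ccr7 was found in 27.5% of the other parous and 51.1% of the other virgin T cells, and the part of this in the difference was not tested.

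Adhesion molecules stood on the other side. Of 18 measured integrins and adhesion genes, 6 were higher in both libraries (Cd44, Itgal, Itgb1, Jaml, Itga2 and Cd226) (5 after rescaling). The share over all genes was 5.26%. Itgb1, which encodes the beta-1 chain that pairs with CD49a, had 501.5 CPM in gated and 279 in other parous cells (log2 ratio 0.85), and 694 and 285.5 CPM in virgin cells (1.28). It had UMIs in 80.6% of parous gated and 95.5% of virgin gated cells. Cd44, the hyaluronan receptor of antigen-experienced T cells, had 220 and 93.2 CPM in parous (1.25) and 193 and 104 CPM in virgin cells (0.89). Cd226, an activating receptor of the nectin-binding family, stood at 0.95 in parous and 1.35 in virgin cells on the log2 scale, and Itgal, the alpha chain of LFA-1, at 0.82 and 0.80.

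Among the 12 genes furthest above the other T cells in both libraries, ranked by the smaller ratio over genes with at least 30 UMIs and 50 CPM, in at least 10 gated cells and with no cell over 25% of the UMIs, was Rgs2, a regulator of G protein signalling, with 583 CPM in gated and 279 in other parous cells, and 431 and 169 CPM in virgin cells (log2 ratios 1.07 and 1.35). S100a4, a calcium-binding protein of motile cells, had 1193 and 597 CPM in parous (1.0) and 1673 and 585 CPM in virgin cells (1.52), in 86.6% of parous and 94.0% of virgin gated cells. The rest were Cd226, Arhgap10, Cd44, Itgb1, St8sia4, Kcnq5, Itgal, Aplp2, Sorl1 and Sept11. Of 21 measured S100, annexin and galectin genes, 4 were higher in both (S100a4, Anxa4, Lgals3 and Anxa1) and none lower. After rescaling 2 of them were higher. Over all genes, 5.26% were higher in both and 3.22% lower before rescaling. Of 28 cell cycle genes, 9 were higher in both and none lower (8 and 0 after rescaling). In the parous library this count leans on 1 cell. Over 12 of these genes, that gated cell held 58 UMIs and no other parous gated cell more than 7.

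**Figure D3:**
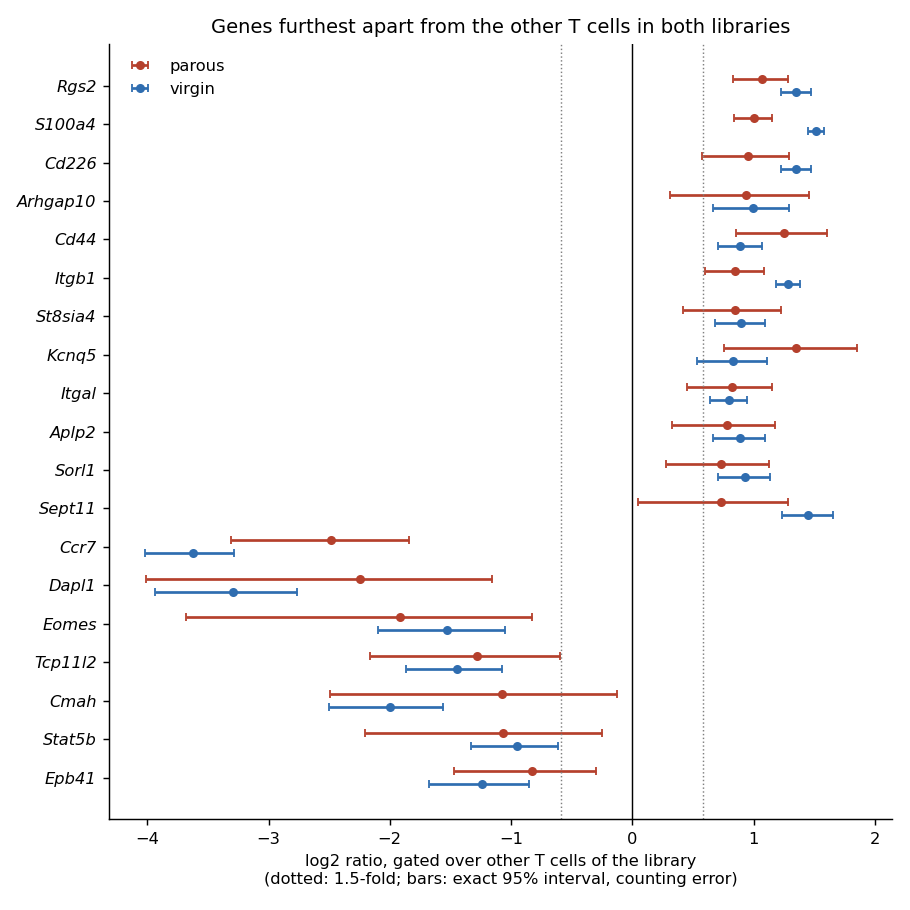
Log2 ratio of gated over other T cells (horizontal axis) in the parous (red) and virgin (blue) libraries, for the 12 genes furthest above and 7 of the 8 furthest below the other T cells in both; bars are exact 95% intervals of counting error and dotted lines mark 1.5-fold. Ccr7 and Dapl1 lie furthest below, at -2.48 and -2.25 in parous and -3.63 and -3.29 in virgin cells.

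Of 23 measured tissue residency genes, 5 were higher in both libraries (Rgs2, Zfp683, P2rx7, Ccr8 and Nr4a1, an early gene of T cell receptor signalling) and 1, Hpgds, lower (4 and 2 after rescaling). In each library by itself, 5 were higher and 3 lower in parous cells, where 21.5% of all genes were higher, and 11 were higher and 3 lower in virgin cells, where 19.9% were. This list holds the 3 markers above and was drawn up with results of these data known, so its count is not independent evidence of residency. Of 31 transcription factors, 4 were higher (Zfp683, Rbpj, Tbx21 and Nr4a1) and 7 lower (2 and 7 after rescaling). Among all genes, 5.26% were higher and 3.22% lower in both libraries. Tbx21, which encodes T-bet, the factor of type 1 responses, had 210 CPM in gated and 132 in other parous cells (log2 ratio 0.68), and 265.5 and 120 CPM in virgin cells (1.15). Eomes, a related factor of memory and exhausted CD8 cells, was lower, with 16.9 and 70.5 CPM in parous (-1.92) and 22.8 and 66.8 CPM in virgin cells (-1.53). Id3, Ikzf2 (the factor Helios), Tox, Maf, Zeb1 and Lef1 were the others below. Of Id3 only 2 UMIs were found in each library's gated cells, and of Ikzf2 10 parous and 1 virgin UMI.

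A few cytokine genes were higher in both libraries, and no cytotoxic gene was. Of 14 measured cytokine genes, 4 were higher in both libraries (Il2, Ifng, Tnfsf14 and Cd40lg) and none lower (3 and 0 after rescaling). The shares over all genes were 5.26% higher and 3.22% lower. Ifng, which encodes interferon gamma, had UMIs in 46.3% of the parous and 79.7% of the virgin gated cells, at 227 CPM in gated and 147 in other parous cells (log2 ratio 0.64), and 339 and 172 CPM in virgin cells (0.98). Cd40lg, the CD40 ligand best known from CD4 helper cells, had 94.9 and 19.8 CPM in parous (2.28, in 8 gated cells) and 100.2 and 19.2 CPM in virgin cells (2.39, in 36 gated cells). Il2 had log2 ratios of 2.29 and 1.76, with 60% of its 15 parous UMIs in 1 cell. Among 16 chemokine receptors, Ccr4, Cx3cr1, Ccr8, Ccr10 and Cxcr3 were higher in both and Cxcr5, Ccr9 and Ccr7 lower (4 and 4 after rescaling). Ccr4, a receptor of skin-homing and type 2 T cells, had 40.7 and 4.14 CPM in parous (3.34, 12 UMIs in 8 cells) and 15.2 and 2.65 CPM in virgin cells (2.54, 22 UMIs in 14 cells), while all Ccr10 UMIs came from 1 cell in each library.

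None of 16 cytotoxic genes was higher or lower in both libraries (0 and 1 after rescaling), and the granzymes Gzma and Gzmb stood on opposite sides in the 2 libraries. Gzmb had 234 CPM in gated and 583 in other parous cells (log2 ratio -1.31), and 731 in gated and 250.5 in other virgin cells (1.55). Gzma had 102 and 1632 CPM in parous cells (-3.98), with 70% of its 30 gated UMIs in 1 cell, and 673 and 572 CPM in virgin cells (0.24). The other parous T cells include the Fcer1g and Tyrobp cells that the gate leaves out, whose Gzma level is given below. Prf1, which encodes perforin, stood at -0.38 and -0.23, and Xcl1, a chemokine for dendritic cells, at -0.53 and 1.68.

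Genes of CD4 T cells were counted separately, since Cd40lg and Ccr4 are better known from those cells. Of the 6 members measured in both libraries of a CD4 helper and regulatory T cell list, 4 were higher in both (Il2ra, Zbtb7b, Trat1 and Cd40lg, with 3 after rescaling), and the summed level of the list was 281 CPM in gated and 185 in other parous cells, and 359 and 255 CPM in virgin cells. Of all genes, 5.26% were higher in both libraries. Cd4 itself had 0 UMIs in the gated cells of both libraries. Summed NK and innate lymphoid markers stood at 308 CPM in gated and 476 in other parous cells, and 275 and 482 in virgin cells. Gamma-delta T cell markers stood at 16.9 and 52.3 CPM in parous, and 8.30 and 25 CPM in virgin cells. B cell genes had 98.3 and 126 CPM in parous and 202 and 161 CPM in virgin cells, myeloid genes 23.7 and 46.9 and then 42.9 and 28.1, and mammary epithelial genes 10.2 and 63.7 and then 4.15 and 4.98. Granulocyte, adipocyte, fibroblast and erythroid lists had 0 UMIs in parous gated cells. The part of other cells' RNA in the results was not tested.

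Parous gated cells had less RNA of cell division genes than virgin gated cells, and about as much as the other parous T cells. Over the 6467 genes with at least 30 UMIs in both groups together, 725 passed 1.5-fold upward (11.2%) and 1767 downward (27.3%) in parous gated cells, with a median log2 ratio of -0.17 over all genes, which median-of-ratios scaling shifts by -0.03. The parous side rests on 295105 UMIs and the virgin side on 1446537, so many ratios rest on few parous UMIs. Of the 847 genes with at least 300 UMIs, 70 were higher and 180 lower. In bulk sums such as these, fewer cells of a state and less RNA per cell cannot be told apart.

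Of 28 measured cell cycle genes, 27 were lower and none higher in parous gated cells, with a median log2 ratio of -1.95. Their summed level was 1976 CPM in parous and 8273 CPM in virgin gated cells, beside 1853 CPM in the other parous and 2877 CPM in the other virgin T cells. Mki67, the proliferation marker Ki-67, had 6 UMIs in 2 parous cells and 327 UMIs in 36 virgin cells, at 20.3 and 226 CPM (log2 ratio -3.36). Top2a, the topoisomerase of dividing cells, had 23.7 and 259 CPM (-3.35). Replication-dependent histone genes lay furthest below, with 1 parous and 881 virgin UMIs of Hist1h1b (-6.91, interval -12.79 to -5.01). Counted per cell, 3 of 67 parous gated cells (4.48%) and 43 of 133 virgin gated cells (32.3%) were cycling, meaning at least 2 UMIs over 12 cell cycle genes. In the other T cells at deposited depth the shares were 4.00% and 7.95%. At 1500 UMIs per cell they were 3.03% and 15.8% in the gated cells, and 1.91% and 3.37% in the other T cells. Without the cycling cells, an alternative chosen after the data were seen, 1 of 7 measured cell cycle genes was lower and the median was -0.31, as the choice of cells requires.

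The killer cell lectin receptor Klrg1, a marker of circulating effector CD8 cells, separated the libraries about as far. It had 9 UMIs in 5 parous gated cells (7.46%) and 546 UMIs in 71 virgin gated cells (53.4%), at 30.5 and 377 CPM (log2 ratio -3.55, interval -4.77 to -2.69). In the other T cells it was found in 5.88% of the parous and 14% of the virgin ones. At 1500 UMIs the gated shares were 3.03% in parous and 30.1% in virgin ones. At deposited depth 53.4% of virgin gated cells (interval 44.5 to 62.1%) thus carried RNA of a gene that is low in most resident cells, and the share was 33.0% without the Trbv31 cells described below. Of 10 measured NK receptor genes, 5 were lower (Klrb1f, Klrg1, Klra3, Cd244a and Klrk1) and 1, Klrc1, higher in parous gated cells. Over all genes, 27.3% were lower and 11.2% higher. Klrc1 encodes the inhibitory receptor NKG2A and had 217 CPM in parous and 71.2 CPM in virgin gated cells (1.61).

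The resident markers were lower in the parous gate in summed UMIs as well. Zfp683 had 71.2 CPM in parous and 163 CPM in virgin gated cells (log2 ratio -1.17, interval -1.92 to -0.55), P2rx7 33.9 and 77.4 CPM (-1.13, interval -2.29 to -0.26) and Ccr8 13.6 and 51.2 CPM (-1.76, interval -3.83 to -0.50). Cd69 had 329 and 566 CPM (-0.78). Of 20 measured residency genes, 4 were higher (Litaf, Fosl2, Icos and Crem), where 11.2% of all genes were, and 6 lower (Dusp6, Ccr8, Zfp683, P2rx7, Ctla4 and Cd69), where 27.3% were, with a median of 0.03. The lower count is near that background and says little of the list.

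Genes of TGF-beta signalling, the cytokine pathway known to induce CD103 in resident T cells, were more often higher than lower. Of 14 measured, 6 were higher (Pmepa1, Ski, Ldlrad4, Smad7, Smad3 and Tgif1) and 2 lower (Tgfb1 and Itgav) in parous gated cells, with a median log2 ratio of 0.49. Over all genes, 11.2% were higher and 27.3% lower. Pmepa1 (ENSMUSG00000038400, chromosome 2, 173224458 to 173276533), a target and feedback inhibitor of the pathway, had 30 UMIs in 19 parous cells and 20 UMIs in 5 virgin cells, at 102 and 13.8 CPM (2.87, interval 2.01 to 3.77), and 80% of the virgin UMIs came from 1 cell. The inhibitory Smad7 had 136 CPM in parous and 57.4 CPM in virgin cells (1.25), and the repressor Ski 54.2 and 18.7 CPM (1.56). The other T cells had 102 CPM of Pmepa1 in parous and 22.0 CPM in virgin mice, so a difference of this direction was present outside the gate as well.

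Several of the genes highest in parous gated cells were likewise higher in the other parous T cells. Litaf, an endosomal protein, had 196.5 CPM in parous and 47.0 CPM in virgin gated cells (log2 ratio 2.07), and 211 and 35.0 CPM in the other T cells. Fosl2, an AP-1 transcription factor, had 224 and 63.6 CPM in gated (1.82) and 170 and 54.5 CPM in other cells. Atf2, Kdm6b, Klrc1 and Il4ra, the receptor chain for IL-4, differed less in the other T cells. Atf2, a bZIP transcription factor, had 125 and 33.2 CPM in gated (1.92) and 60.0 and 46.6 CPM in other cells. Foxp1, a transcription factor of quiescent T cells, had 339 and 113 CPM in gated cells (1.59) but 299 and 370 CPM in other cells. Whether the gated and other cells differ in these ratios was not tested.

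Of 22 measured recirculation genes, 6 were higher in the parous gate (Foxp1, Satb1, Il7r, Sidt1, Klf3 and S1pr1), none was lower and 16 did not pass 1.5-fold, with a median log2 ratio of 0.26. Il7r had 200 CPM in parous and 77.4 CPM in virgin gated cells (1.37), and S1pr1 77.9 and 45.6 CPM (0.79), but with the stricter gate of 2 UMIs S1pr1 turned round to -0.17. Klf2 was 705 and 749 CPM (-0.09). Without the cycling cells 4 of 18 were higher and 4 lower, with a median of -0.25, and without the Trbv31 cells described below 5 of 19 were higher and the median was -0.15. Of all genes, 11.2% were higher and 27.3% lower with all gated cells. These shares were 8.56% and 21.0% without cycling cells, and 8.33% and 23.1% without Trbv31 cells. The direction of the list's median thus held only with those cells included.

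**Figure D4:**
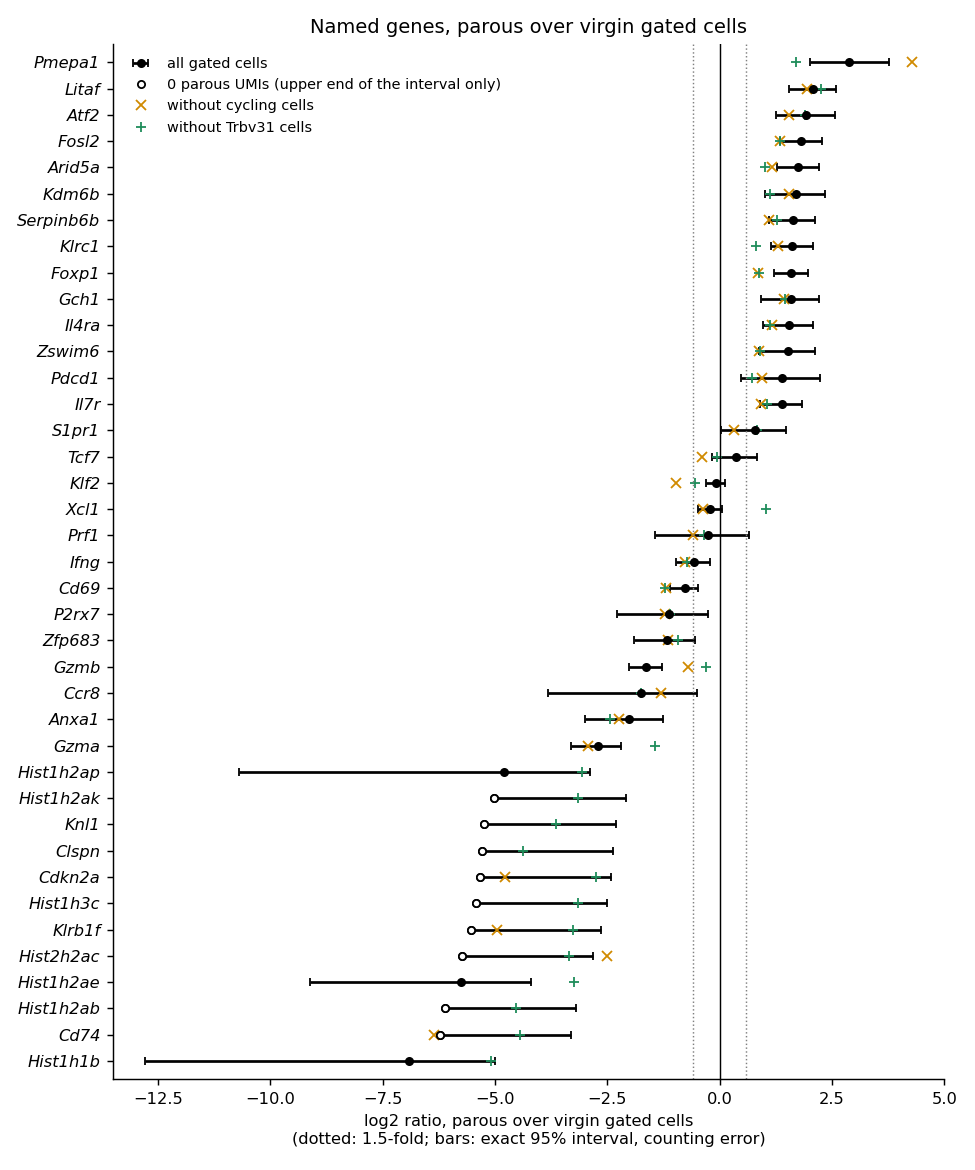
Log2 ratio of parous over virgin gated cells (horizontal axis) for the named genes, with exact 95% intervals of counting error, dotted lines at 1.5-fold, and the value without cycling cells (orange crosses) and without Trbv31 cells (green plus signs) where a fold could be given; open circles have 0 parous UMIs. Pmepa1 and Litaf lie furthest above, histone genes and Cd74 furthest below, and Gzmb lies at -1.63 with all cells and at -0.30 without the Trbv31 cells.

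Of 20 measured S100, annexin and galectin genes, none was higher and 11 were lower in parous gated cells, with a median log2 ratio of -0.64. Over all genes, 11.2% were higher and 27.3% lower. Lgals1, a galectin of activated and dividing T cells, had 1220 CPM in parous and 2657 CPM in virgin cells (-1.12), and Anxa1, an annexin of effector cells, 44.1 and 185 CPM (-2.02). Without the cycling cells 8 of 19 were lower, where 21.0% of all genes were, and without the Trbv31 cells 6 of 19, where 23.1% were. Cytotoxic genes were split, with 3 of 15 higher (Gzmm, Serpinb6b and Serpinb9, the last a granzyme B inhibitor) and 4 lower (Gzma, Gzmb, Unc13d and Rab27a). The lower count is near the share over all genes and says little of the list. Gzmb had 234 and 731 CPM (-1.63), Gzma 102 and 673 CPM (-2.70), Prf1 33.9 and 42.2 CPM (-0.26), Ifng 227 and 339 CPM (-0.57) and Xcl1 478 and 555 CPM (-0.21). Of 17 inhibitory receptors and signalling brakes, 4 were higher (Pdcd1, Lax1, Btla and Vsir) and 5 lower (Cd244a, Lilr4b, Lilrb4a, Ctla4 and Lag3). Here too the lower count is near the share over all genes. Pdcd1, which encodes PD-1, had 18 UMIs in parous and 34 in virgin cells, at 61.0 and 23.5 CPM (1.39).

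Cytokine receptor and Socs genes held 5 higher (Il4ra, Socs3, Il7r, Socs1 and Il21r) and 2 lower (Socs2 and Il12rb1) of 22. Socs3, an inhibitor of STAT signalling, had 186 CPM in parous and 69.8 CPM in virgin gated cells (log2 ratio 1.42). Among 10 chemokine receptor genes, Ccr4 and Gpr183 were higher and 4 lower, Ccr8, Ccr2 and Cx3cr1 among them. Ccr2, a receptor for inflammatory chemokines, had 50.8 CPM in parous and 94.0 CPM in virgin gated cells (-0.85). Of 15 glycolysis genes 2 were higher and 4 lower. Of 26 transcription factors, Bach2, Klf3 and Zeb1 were higher, and Zeb2, Id2, Zfp683, Rbpj and Irf4 were lower. Over all genes, 11.2% were higher and 27.3% lower. The lower counts of glycolysis genes and transcription factors were not above that share.

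The receptor genes of the cells, which the gate did not use, showed that virgin gated cells were dominated by few V segments. A beta V segment was assigned in 52 of 67 parous and 115 of 133 virgin gated cells. Trbv31 was assigned in 7 of the 52 parous cells (13.5%, interval 5.59 to 25.8%) and 42 of the 115 virgin cells (36.5%, interval 27.7 to 46.0%), beside 5.28% of the other parous and 6.73% of the other virgin T cells. Trbv29 followed with 6 parous (11.5%) and 18 virgin cells (15.7%), beside 5.28% and 8.99% of the other cells. The most frequent segment of the parous gate was Trbv3, with 9 cells (17.3%), beside 12.3% of the other parous T cells. The effective number of beta V segments was 10.7 in parous and 5.65 in virgin gated cells, beside 14.8 and 16.2 in the other T cells.

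The alpha chain narrowed the virgin cells further. Among 74 virgin gated cells with an assigned alpha V segment, Trav12-3 was found in 17 (23.0%, beside 2.93% of the other cells), Trav3-1 in 11 (14.9%, beside 3.02%) and Trav10d in 9 (12.2%, beside 1.79%). In the 70 virgin cells with both chains assigned, Trbv29 with Trav12-3 was found in 12, Trbv31 with Trav3-1 in 11 and Trbv31 with Trav10d in 8. Over all virgin T cells these pairs were found in 17, 28 and 21 cells, so 12 of the 17 cells with the first pair lay in the gate. Of the 22 parous gated cells with both chains, none had any of the 3 pairs, and the most frequent pair, Trbv31 with Trav8-1, was found in 3. The 3 pairs were rare in the whole parous library too. Among its 825 T cells with both chains, Trbv29 with Trav12-3 was found in 3, and Trbv31 with Trav3-1 or Trav10d in none. Shared V segments do not show shared clones, since the joining sequences were not used here.

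Cells of the 3 virgin pairs were counted for the resident markers and Klrg1, each gene by itself. Of the 12 cells with Trbv29 and Trav12-3, 9 had Zfp683, 6 P2rx7, 3 Ccr8 and 10 Klrg1, and 5 were cycling. Of the 11 with Trbv31 and Trav3-1, 10 had Zfp683, 6 P2rx7, 3 Ccr8 and 11 Klrg1, and 7 were cycling. Of the 8 with Trbv31 and Trav10d, 7 had Zfp683, 4 P2rx7, 2 Ccr8 and 8 Klrg1, and 6 were cycling. Klrg1 and Zfp683 were thus found in most cells of each pair, and P2rx7 and Ccr8 in fewer.

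The virgin gate was therefore split by Trbv31, a division chosen after the data were seen. The 42 virgin Trbv31 cells held a median of 15150.5 UMIs, beside 5808 UMIs in the 91 gated cells not assigned to it, and 28 of them (66.7%) were cycling, beside 15 (16.5%). Klrg1 was found in 97.6% of the Trbv31 cells, at 617 CPM, and in 33.0% of the rest, at 155 CPM. At least 1 of the 3 resident markers was found in 39 (92.9%) of the Trbv31 cells and 55 (60.4%) of the rest. Per UMI the markers differed less, with 181 and 147 CPM of Zfp683, 87.5 and 68.0 CPM of P2rx7, and 45.9 and 56.0 CPM of Ccr8 in Trbv31 cells and the rest. The rest was not uniform. Its 18 Trbv29 cells held a median of 8115.5 UMIs, and 38.9% of them were cycling, 66.7% had Klrg1 and 83.3% had a resident marker. In the 55 cells assigned to yet another segment the median was 5488 UMIs, and these shares were 10.9%, 25.5% and 52.7%. The features were thus not particular to Trbv31. Depth and cycling move together with Trbv31, and their part in the shares was not tested. The 7 parous Trbv31 cells held a median of 3512 UMIs, none was cycling and 1 had Klrg1, so the virgin features of Trbv31 cells were not seen in these few cells.

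**Figure D5:**
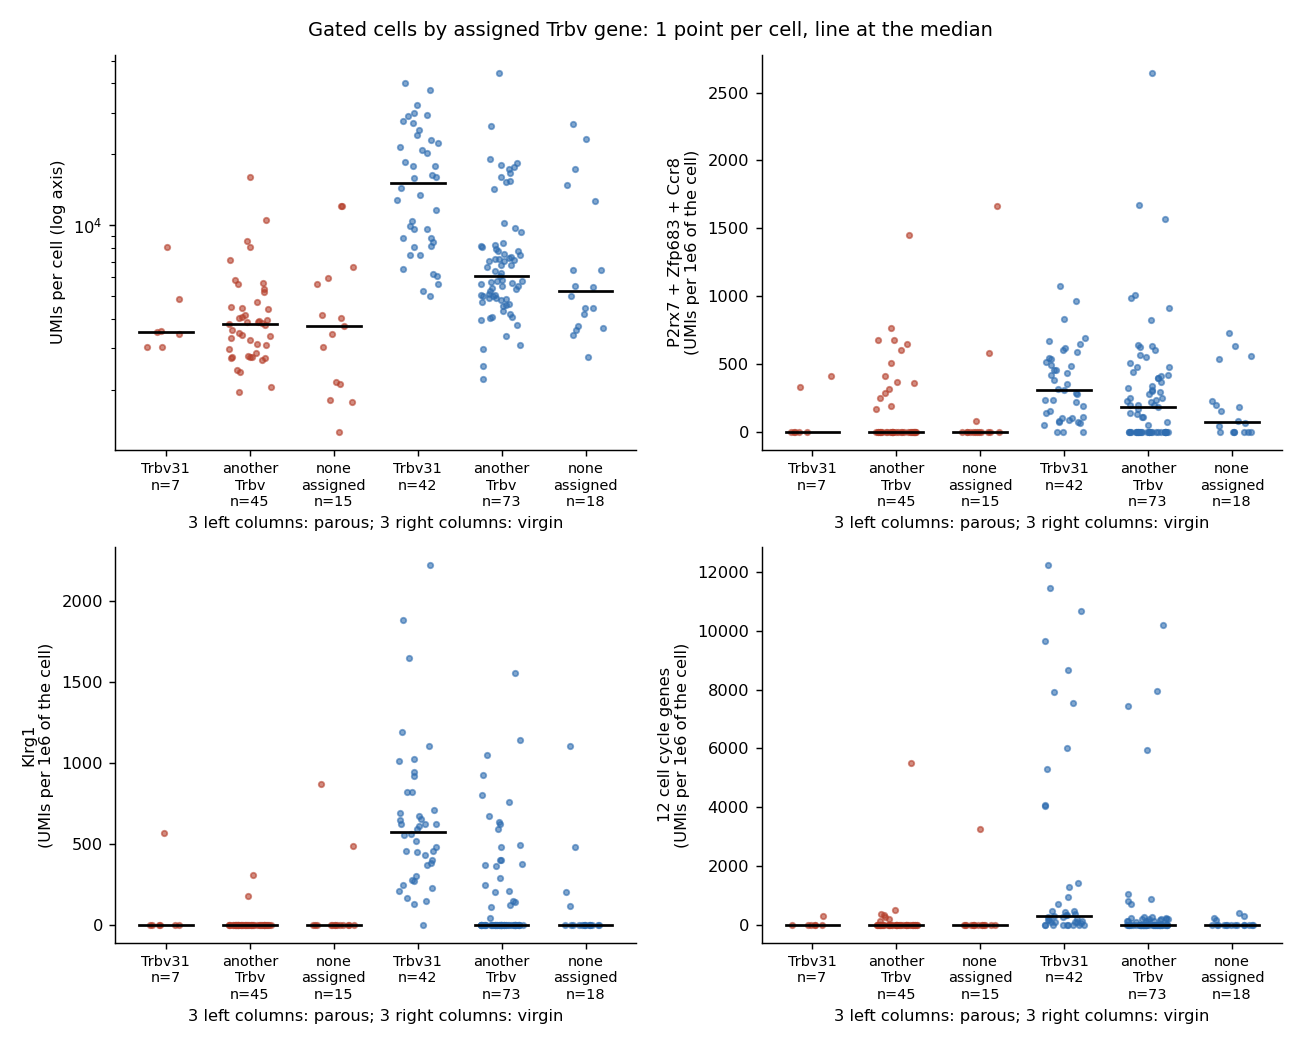
Each point is 1 gated cell, by library (parous red, virgin blue) and by assigned beta V segment, showing UMIs per cell on a log axis, the summed level of P2rx7, Zfp683 and Ccr8, Klrg1, and 12 cell cycle genes, each per 1e6 UMIs of the cell; lines are medians. Trbv29 cells are drawn among those with another segment. The 42 virgin Trbv31 cells have a median of 15150.5 UMIs and nearly all carry Klrg1, and the 7 parous Trbv31 cells have a median of 3512 UMIs.

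Set against the 73 virgin gated cells with another beta V segment, the 42 Trbv31 cells had 819 of 5646 genes at least 1.5-fold higher (14.5%) and 843 lower (14.9%). Spp1, which encodes the secreted protein osteopontin, had 52 UMIs in 12 Trbv31 cells and 0 in the others, at least 14.8-fold higher. Cd74, the invariant chain of class II molecules, had 152 and 2 UMIs (log2 ratio 5.70, interval 4.14 to 9.08), the cell cycle inhibitor Cdkn2a 89 and 4 UMIs (4.09), and the NK receptor Klra3 89 and 8 UMIs (3.17). Gzmb had 1201 CPM in Trbv31 cells and 218 CPM in the others (2.45). On the other side, Klrc1 had 2 UMIs in Trbv31 cells and 92 in the others (-5.44, interval -8.82 to -3.86), and Cd5, a brake on T cell receptor signalling, 6 and 99 UMIs (-4.16). Of 28 cell cycle genes, 20 were higher and none lower in the Trbv31 cells, of 19 recirculation genes none was higher and 13 lower, and of 20 residency genes 3 were higher and 9 lower. Of 25 immediate early and heat shock genes, which handling of cells also induces, 1 was higher and 13 lower, Nr4a1 of the residency list among them, with a summed level of 11233 CPM in Trbv31 cells and 17293 CPM in the others. Of 9 dissociation and RNA quality genes, 6 were lower (Jun, Egr1, Hspa1b, Malat1, Neat1 and Fos). The part of these in the result was not tested.

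Some differences between the parous and virgin gates changed without these cells. Without the Trbv31 cells of both libraries, Gzmb moved to -0.30, Gzma to -1.43, Klrc1 to 0.80 and Xcl1 to 1.03 on the log2 scale of parous over virgin gated cells, so the call on Gzmb was lost and Xcl1 changed sides. The virgin shares of gated cells with Zfp683 and Ccr8 were then 44.0% and 9.89%. The cell cycle list still had 23 of 26 members lower, with a median of -1.47, and the TGF-beta list 5 higher and 1 lower of 12, with a median of 0.43. Of all genes, 8.33% were higher and 23.1% lower without the Trbv31 cells. Pmepa1 moved to 1.70 without the Trbv31 cells and to 4.27 without the cycling cells.

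The cells most like the gated ones are those that also carry Itgae. Cells with Itga1, Cxcr6 and Itgae and no Fcer1g, Tyrobp or Gzmk numbered 26 among parous and 10 among virgin T cells. Unlike the gated cells, they were free to carry Car2 and Cdh1. Only 12 of the parous and 4 of the virgin ones had neither, and the rest had a UMI of at least 1 of these 2 genes. Itgae, Car2 and Cdh1 together thus set this contrast, their separate parts were not tested, and the values are a description. Of 2023 genes measured in both libraries, 90 were at least 1.5-fold higher (4.45%) and 94 lower (4.65%) in the gated cells in both, and 138 and 56 after median-of-ratios scaling, which shifts the ratios by -0.12 in parous and -0.11 in virgin cells. Cd7, a T cell costimulatory receptor, had 549 CPM in gated and 1425 in CD103 cells of the parous library (log2 ratio -1.38), and 318 and 1594 CPM in the virgin library (-2.33). Inpp4b, a phosphatase of phosphoinositide signalling, stood at -1.36 and -1.21, Bcl2, which protects from cell death, at -1.10 and -1.27, and Socs1, a brake on cytokine signalling, at -1.13 and -1.27. The TGF-beta inhibitor Smad7 was lower in the gated cells as well, at -0.91 and -0.97.

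On the higher side of that comparison stood Nfkbiz, a regulator of NF-kappa-B targets, at 2.16 in parous and 1.79 in virgin cells, Zfp36, which shortens the life of cytokine RNAs, at 1.35 and 1.30, and Samsn1, an adaptor protein, at 1.30 and 1.25. Of 17 measured S100, annexin and galectin genes, 5 were higher in both libraries (Tagln2, Anxa2, Anxa6, Crip1 and Lgals1) and none lower (8 and 0 after rescaling). Lgals1 had 1220 CPM in gated and 253 in CD103 cells of the parous library, and 2657 and 1355 CPM in the virgin library. Of 16 residency genes, 1 was higher (Nr4a1) and 5 were lower (Rgs1, Chn2, Inpp4b, Litaf and Crem) in the gated cells, 1 and 3 after rescaling, and Rgs1 had 596 and 894 CPM in parous and 650.5 and 1010 CPM in virgin cells. Genes of dissociation and RNA quality summed to 13338 CPM in gated and 17223 CPM in CD103 cells of the parous library, and 20030 and 35618 CPM in the virgin library, where Gm42418 and Gm26917 were lower in the gate, and their part in these values was not tested. Zfp683 was found in 22.4% of gated and 23.1% of CD103 cells in the parous library, and 57.1% and 70% in the virgin library. P2rx7 was found in 10.4% and 7.69%, and 37.6% and 70%, and Ccr8 in 4.48% and 19.2%, and 19.5% and 30%. These shares of CD103 cells rest on 26 and 10 cells, and the gated shares lay within their intervals in the parous library for Zfp683 and P2rx7 and in the virgin library for Zfp683, P2rx7 and Ccr8. With 10 virgin cells on 1 side, single cells held up to 100% of the UMIs of a gene such as Nfkbiz.

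Among the other cells with Itga1 that the gate leaves out, some carry both Fcer1g and Tyrobp and are called innate-like here. They numbered 168 among parous T cells and 7 among virgin ones, too few for a comparison there. Fcer1g and Tyrobp set this contrast together with the other rule genes, which innate-like cells were free to carry or lack. Of the 168 parous innate-like cells, 63.1% had Cxcr6 and 73.2% had Itgae. The values are again a description. Of 4830 genes in the parous library, 514 were at least 1.5-fold higher (10.6%) and 972 lower (20.1%) in the gated cells. Ly6a, a surface protein of activated lymphocytes, had 73 UMIs in gated and 3 in innate-like cells (log2 ratio 5.86, interval 4.46 to 8.38). Cd8b1 had 979 and 161 CPM (2.60) while Cd8a had 607 and 772 CPM (-0.34), and the costimulatory receptor Cd28 had 434 and 65.1 CPM (2.73). Themis, a signalling protein of conventional T cell selection, Cd5, Icos and Il7r had log2 ratios of 2.77, 2.74, 2.64 and 2.48. Of the 16 measured T cell receptor and coreceptor genes as a list, 5 were higher (Themis, Cd5, Cd8b1, Lat and Cd247) and 2 lower (Txk and Zap70), with a median of 0.05.

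NK-type genes lay far below in the gated cells of this comparison. Gzma had 30 UMIs in gated and 11097 in innate-like cells (log2 ratio -7.04), Klra7 3 and 681 UMIs (-6.14, interval -8.65 to -4.81), and Klra1 0 and 236 UMIs, at least 28.5-fold lower. Of 16 NK receptor genes, none was higher and 13 were lower, with a median of -2.83 (-2.75 with genes at 0 set to their bound). Of 16 cytotoxic genes, 10 were lower and none higher, of 18 recirculation genes, 14 were higher and none lower, and of 19 residency genes, 3 were higher and 10 lower. Zfp683 had 71.2 CPM in gated and 93.4 CPM in innate-like cells (-0.37), so it did not separate them by 1.5-fold.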

How the data were processed

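Single-cell gene expression was measured in 2 libraries, 1 parous and 1 virgin. The deposited values are raw counts of UMIs for every gene in every barcode, which the authors made using Cell Ranger 7.0.0 (per the file headers). The mm10 build, R 4.4.2 and Seurat are named in the submitters' processing notes without a role, and the settings that called barcodes as cells are not given in the sources used here. The cell filters asked for 500 genes, 1000 UMIs, under 10% mitochondrial UMIs and 1 UMI of Cd3d, Cd3e or Cd3g. The last step left out 28 parous and 14 virgin cells. No doublet caller was run. More than 1 beta V segment was seen in 8 parous (11.9%) and 27 virgin (20.3%) gated cells, beside 10.8% and 22.3% of the other T cells, and an alternative left out cells above the 99th percentile of UMIs.

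Counts were summed over the cells of a group and divided by all their UMIs (CPM). Log2 ratios have 0.5 added to each count, with exact conditional binomial intervals, and cover genes with at least 30 UMIs in both groups together. A gene was called at 1.5-fold, and a list is described by its calls and its median. A fold against 0 UMIs is a bound from a floor of 3 counts over the group, which is 10.2 CPM in parous and 2.07 CPM in virgin gated cells. For equal depth each cell was thinned to 1500 UMIs, the 5th percentile of the parous library rounded down. Thinning virgin UMIs to 58.8% matched the median only. A V segment was assigned from 2 UMIs upward where it held 66.7% or more of the cell's V UMIs. Gene positions come from GENCODE vM21 on GRCm38, matched by Ensembl ID. Median-of-ratios scaling, other minimums, gates, filters and pseudocounts were tried as alternatives, and those without Trbv31 cells, without cycling cells and with 300 UMIs per gene were added after seeing the data. The script was tested on simulated counts. Python 3.11.15, numpy 2.4.6, scipy 1.17.1, pandas 2.3.3 and matplotlib 3.10.9 were used.

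The members and the lists (40 lists, 628 distinct genes, 8 further symbols unmatched) were chosen with earlier results of these data known. Named genes were those with the largest and smallest ratios of each comparison (12 each for parous over virgin, 12 and 8 against the other T cells, 8 each against the CD103 and innate-like cells), with at least 30 UMIs and 50 CPM in 1 group, at least 10 cells and no cell with over 25% of the UMIs, up to 6 members of each list and a fixed set of 25 genes. Rule genes, receptor segments and ribosomal, mitochondrial and unnamed genes were left out. Klrg1 and the V segment pairs were chosen after their values were seen. Results for some genes are not reported here.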

Additional observations from a re-analysis of the deposited data

How the results depend on the processing

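Of the values that answer a comparison, 86 stayed within their counting interval or within 1.5 times under the alternatives and 23 moved. The gate held 1.12% of parous T cells at 1500 UMIs per cell and 1.17% with 2 UMIs of Itga1 or Cxcr6. It held 1.25% of virgin T cells at 1500 UMIs, 4.18% at matched median depth, 3.93% without Trbv31 cells and 3.97% without cycling cells. Genes higher in parous than virgin gated cells numbered 1424 with a minimum of 10 UMIs, 70 with 300 UMIs (and 180 lower), 398 without Trbv31 cells (and 1104 lower) and 373 without cycling cells (and 916 lower). The smaller numbers of genes measured, 847, 4779 and 4360, go with the last 3. The cell cycle list's median was -0.31 without cycling cells. Median-of-ratios scaling gave 321 higher and 522 lower genes against the other T cells and 138 and 56 against the CD103 cells. Virgin gated cells with a UMI at 1500 UMIs were 15% for P2rx7, 22.6% for Zfp683 and 4.51% for Ccr8, and 44.0% and 9.89% without Trbv31 cells for the last 2 genes. Among the other values, 698 stayed within their counting interval, 105 moved out of it and 1 past 1.5-fold changed sign, S1pr1 in parous over virgin gated cells, at -0.17 (6 and 60 UMIs) with the 2-UMI gate. Values under 1.5-fold changed sign as well, Xcl1 at 1.03 without Trbv31 cells and the recirculation list's median at -0.25 without cycling and -0.15 without Trbv31 cells among them. Where no other statement is made, the cause was not tested.

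No paired analysis was possible because each group was 1 library. The main limits are the 67 parous gated cells, which leave low genes such as Ccr8 at a few UMIs, the depth gap between the libraries, which the gate reads, and the 32 parous cells admitted on 1 UMI each of Itga1 and Cxcr6.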
